A study of Mus musculus with 2 samples.

Results

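The genes described here carry the insulin and IGF signal in muscle: the receptors Insr and Igf1r, the docking proteins Irs1 and Irs2, the lipid kinase subunit Pik3r1, the kinase Akt2, the vesicle regulators Tbc1d1 and Tbc1d4, the glucose carrier Slc2a4 and the mTOR inhibitor Ddit4. They are 10 of the 27998 genes in the count table and were found by symbol, and their levels were read in nuclei sorted by the myosin gene they expressed most. Single-nucleus RNA-Seq (snRNA-Seq) was run on nuclei of the gastrocnemius and plantaris (GP) muscles of the calf to learn how loss of Net39, a protein of the nuclear envelope, altered gene expression in the different muscle nuclei. Control mice (Ctrl) were Net39 fl/fl without Cre, and knockout mice (cKO) were HSACreERT2;Net39 fl/fl. Both groups had the B6C3F1 background, carried the floxed allele, were 5 months old and, per the study's methods, had received tamoxifen 3 months earlier. The human skeletal actin promoter drives the inducible Cre in muscle fibres and not in satellite cells. Each group was 1 library. The protocol in the labels gives 3 pooled muscles per group, whereas the titles name mouse 1, so how many animals a library stands for is uncertain. With 1 library a group, the values below have no replicates and no test, and every interval covers counting error only.

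Insulin and IGF1 bind paired receptor tyrosine kinases that phosphorylate the docking proteins Irs1 and Irs2. These recruit phosphoinositide 3-kinase through its regulatory subunit, and the lipid it makes activates Akt, which promotes protein synthesis through mTOR and holds Foxo factors outside the nucleus. In muscle, Akt2 also phosphorylates Tbc1d4 and Tbc1d1, which releases the brake on vesicles that carry the transporter Slc2a4, also called Glut4, to the fibre surface.

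Levels are given as CPM, the usual scaling of counts to a common total: the unique molecular identifiers (UMIs, each 1 captured RNA molecule) of a gene were summed over a class of nuclei of a library and divided by all UMIs of that class. Each level has an exact Poisson 95% interval. The Ctrl library held 10410316 UMIs in 3863 barcodes and the cKO library 8446070 in 3994, with medians of 2106 and 1662.5 UMIs, and 5 barcodes occurred in both. After filters and removal of nuclei from outside the fibres, 2989 Ctrl and 3301 cKO myonuclei remained. All 9 markers of muscle fibre nuclei were seen in every class, but also in the clusters set aside as outside the fibres. Their summed level ran from 61920 to 83939 CPM in the classes and from 24578 to 51771 CPM in those clusters. Malat1, a nuclear transcript, took 26.5% of myonuclear UMIs in Ctrl and 31.4% in cKO. Net39 itself, listed as Plpp7, was at 51.6 CPM in Ctrl against 41.0 CPM in cKO myonuclei, but the deleted first exon lies away from the 3′ end that the kit reads, so this value is no direct check of the deletion. By class it was 54.5 against 60.2 CPM in Myh4 nuclei, 41.3 against 28.0 CPM in Myh1 nuclei and 34.3 against 26.2 CPM in Myh2 nuclei, so Plpp7 was not lower in cKO in the largest class. It was 62.1 against 28.0 CPM in nuclei without a leading myosin, and 49.4 CPM from 2 UMIs against 13.1 CPM from 8 UMIs in Myh7 nuclei. The study itself reported reduced Net39 mRNA in cKO GP muscle by bulk RNA-Seq, and loss of the protein in cKO quadriceps by Western blot.

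A nucleus was placed in a myosin class when at least 3 UMIs of Myh7, Myh2, Myh1 and Myh4 were seen and 1 of these genes gave at least 60% of them. Myh7 marks slow type I fibres, and Myh2, Myh1 and Myh4 mark the fast types IIa, IIx and IIb. The Myh7 class held 19 Ctrl and 276 cKO nuclei, the Myh2 class 165 and 324, the Myh1 class 302 and 382, and the Myh4 class 1916 and 1435. A further 127 and 207 nuclei had no leading myosin, and 460 and 677 had too few myosin UMIs. The 40470 UMIs of the Ctrl Myh7 class leave most members with under 20 UMIs there, which sets how firmly that class can be compared. Near the limits, 283 nuclei in each library had exactly 3 myosin UMIs, and 191 Ctrl and 238 cKO nuclei passed with a leading share under 70%. The Myh2 and Myh1 classes drew on partly different clusters in the libraries, since the cluster with type I markers held 7.88% of the Ctrl and 28.1% of the cKO Myh2 nuclei, and 8.94% and 22.5% of the Myh1 nuclei.

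The letters around the annotated start sites of Irs1, Irs2 and Tbc1d1, which were among the members past 1.5-fold over all myonuclei, are shown here so that the genes can be placed. Each run covers 250 bases before to 50 bases from the start of a RefSeq transcript (GRCm38.p6), printed 5′ to 3′ on the strand of the gene. Capitals mark CACGTG and CAGCTG, both E-boxes, and TGACG, the cAMP response half-site, searched on both strands, so that the half-site can read CGTCA. The Irs1 run lies at chr1:82291390-82291689 on the minus strand and its half-site overlaps its CACGTG. The Irs2 run lies at chr8:11008880-11009179, also on the minus strand. The Tbc1d1 runs lie on the plus strand at chr5:64160010-64160309 and chr5:64230107-64230406.
Irs1: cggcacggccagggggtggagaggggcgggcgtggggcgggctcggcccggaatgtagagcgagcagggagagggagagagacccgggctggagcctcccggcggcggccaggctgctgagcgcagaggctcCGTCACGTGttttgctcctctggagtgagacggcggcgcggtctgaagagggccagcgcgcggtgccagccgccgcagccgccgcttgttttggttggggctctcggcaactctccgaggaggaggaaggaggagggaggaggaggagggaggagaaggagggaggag
Irs2: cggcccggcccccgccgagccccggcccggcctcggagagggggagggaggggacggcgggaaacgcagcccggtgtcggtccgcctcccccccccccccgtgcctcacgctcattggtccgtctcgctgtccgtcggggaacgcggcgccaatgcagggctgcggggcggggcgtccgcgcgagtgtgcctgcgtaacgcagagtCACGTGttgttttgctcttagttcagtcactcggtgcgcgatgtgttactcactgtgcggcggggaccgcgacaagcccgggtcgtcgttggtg
Tbc1d1, upstream start: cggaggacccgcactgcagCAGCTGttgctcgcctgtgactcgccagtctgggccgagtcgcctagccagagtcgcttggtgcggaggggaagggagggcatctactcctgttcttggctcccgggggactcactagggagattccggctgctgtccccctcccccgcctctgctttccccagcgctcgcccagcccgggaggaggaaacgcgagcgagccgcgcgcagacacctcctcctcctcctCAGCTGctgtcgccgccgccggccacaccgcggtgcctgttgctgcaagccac
Tbc1d1, downstream start: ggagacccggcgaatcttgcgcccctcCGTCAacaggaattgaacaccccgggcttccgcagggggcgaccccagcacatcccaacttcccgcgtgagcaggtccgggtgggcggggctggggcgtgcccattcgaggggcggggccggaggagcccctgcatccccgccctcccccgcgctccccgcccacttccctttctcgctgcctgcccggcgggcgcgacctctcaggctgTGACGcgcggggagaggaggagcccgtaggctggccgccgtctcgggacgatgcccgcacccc
RefSeq gave 13 such runs for 8 of the members. CACGTG, bound by basic helix-loop-helix factors, was in the runs of Irs1 and Irs2, that is, in 2 of the 13 runs and in 7.15% of all 32851 promoters. CAGCTG was in 2 runs, of Akt2 and Tbc1d1, against 16.3% of all promoters, and TGACG in 5 runs of Akt2, Irs1, Pik3r1 and Tbc1d1, against 20.8%. The Foxo letters GTAAACA and the glucocorticoid receptor core ACANNNTGT were in none of the 13, against 3.65% and 6.85% of all promoters. These matches describe letters only.

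Over all myonuclei, the insulin receptor differed by less than counting error, both docking proteins and Tbc1d4 were higher in cKO, and Tbc1d1 and Ddit4 were lower. Of the 10 members, all of which had enough UMIs for the comparison, 3 were at least 1.5-fold higher in cKO, where 9% of the 11271 genes compared were. Another 2 members were at least 1.5-fold lower, where 13.4% of genes were. Over the members the median log2 ratio was −0.08, taken as cKO over Ctrl, and it was −0.09 over all genes compared. The plot of levels by main myosin shows that the members followed several patterns among the classes.

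**Figure D1:**
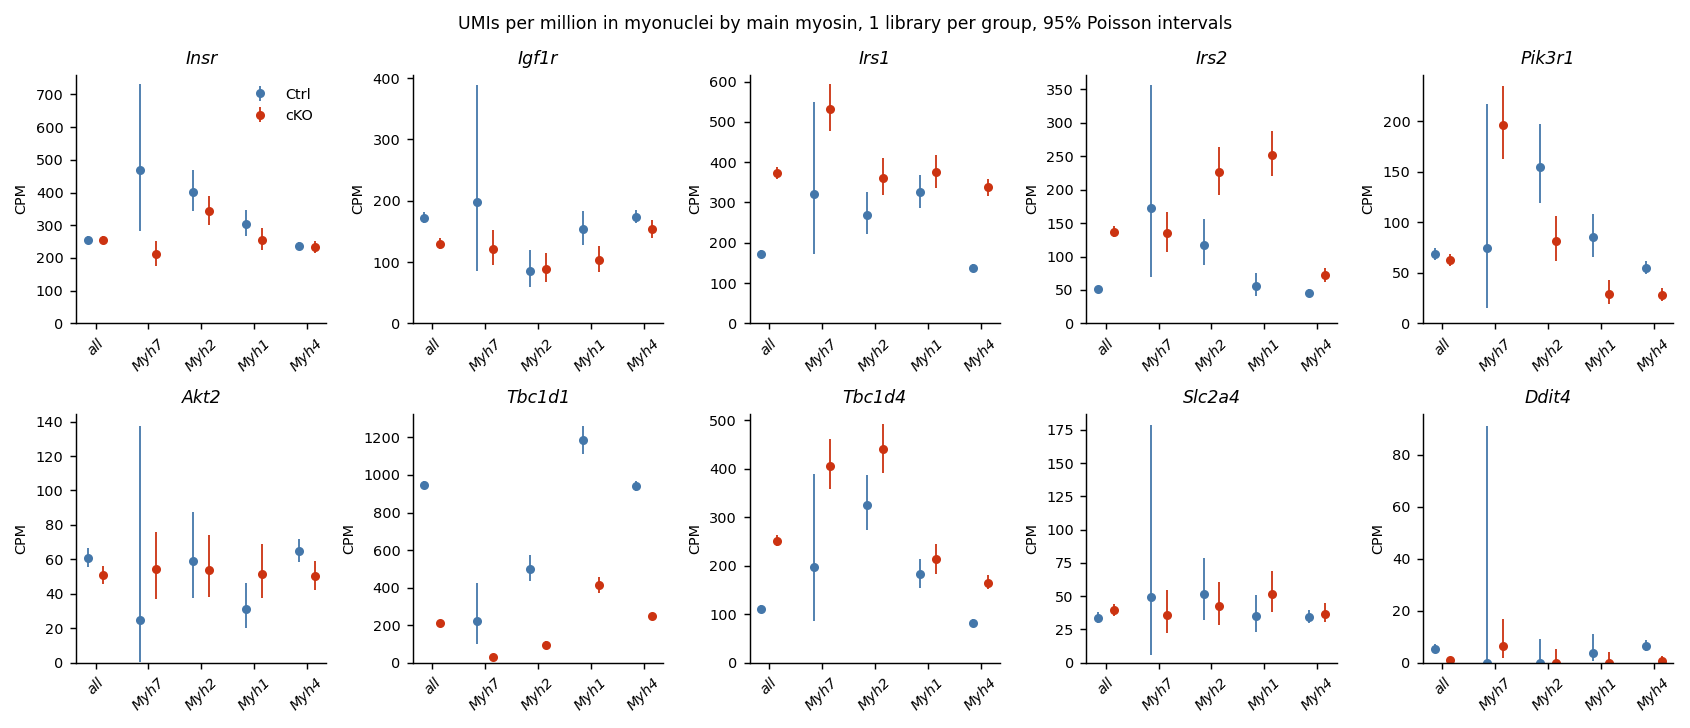
Level (CPM, linear axis from 0) of each of the 10 members in all myonuclei and in the classes set by main myosin, for the Ctrl library (blue) and the cKO library (red), with exact Poisson 95% intervals that cover counting error only. Tbc1d1 lies lower in cKO in every class, with 9 Ctrl UMIs in Myh7 nuclei, while Irs2 stands highest in the Myh1 and Myh2 classes of cKO, at 252 and 226 CPM.

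Insr encodes the insulin receptor. Its level over all myonuclei was 256 CPM (245 to 268) in Ctrl and 254 CPM (242 to 266) in cKO. The log2 ratio was −0.01 with an interval from −0.11 to 0.08. In Ctrl it was 236 CPM in the Myh4 class, 305 CPM in the Myh1 class and 402 CPM in the Myh2 class, and in cKO the same classes stood at 233, 256 and 342 CPM. In both libraries, then, the order from Myh4 to Myh2 was the same, and in no class with enough UMIs did the libraries differ by 1.5-fold. The Ctrl Myh7 class gave 469 CPM from 19 UMIs against 212 CPM in cKO, which rests on too few UMIs to be counted, and its log2 ratio of −1.15 became −0.51, under 1.5-fold, with TMM scaling.

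Igf1r, the receptor for IGF1 and IGF2, was lower in cKO by a smaller margin than 1.5-fold. Over all myonuclei it was at 173 CPM (164 to 182) in Ctrl and 130 CPM (121 to 138) in cKO, with a log2 ratio of −0.41 (−0.54 to −0.29). It was −0.19 in the Myh4 class, −0.58 in the Myh1 class and 0.05 in the Myh2 class. The Myh1 value lies near 1.5-fold and passed it under several alternatives, reaching −0.72 with all nuclei whatever their cluster. Unlike Insr, this receptor was lowest in the Myh2 class of both libraries, at 85.8 CPM in Ctrl against 88.9 CPM in cKO. Igf1r gave 42.4% (40.4 to 44.5) of the UMIs of both receptors in Ctrl Myh4 nuclei and 17.6% (12.6 to 23.6) in Ctrl Myh2 nuclei. For cKO they were 39.7% (36.8 to 42.6) and 20.6% (16.1 to 25.7), so the tilt from Myh4 to Myh2 was present in both libraries.

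Igf1r was also well represented outside the fibres, and this bears on how its myonuclear level is read. In the cluster with markers of fibro-adipogenic progenitors (FAP-like) it was at 405 CPM in Ctrl against 351 CPM in cKO. That cluster was mixed, since 6 of 7 adipocyte and 5 of 7 satellite cell markers were detected in it beside all 10 FAP markers. The summed level of 10 FAP markers in myonuclei was 85.8 CPM in Ctrl against 52.2 CPM in cKO, with all 10 seen in both libraries. By class this sum was 75.2 and 44.7 CPM in Myh4 nuclei, where Pdgfra and Lum were at 0 in cKO, 61.3 and 38.1 CPM in Myh1 nuclei, and 49.0 and 55.4 CPM in Myh2 nuclei. In the Myh1 class Col1a1 and Lum were at 0 in both libraries and Pdgfra in cKO, and in the Myh2 class Col1a1 was at 0 in both and Lum and Mfap5 in Ctrl. The part of such RNA in the Igf1r difference was not tested.

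Irs1 encodes the main docking protein of the insulin receptor in muscle. Over all myonuclei it was at 172 CPM (163 to 181) in Ctrl and 373 CPM (358 to 388) in cKO, which is 2.17-fold higher (2.03 to 2.32). In the Myh4 class it was at 137 CPM in Ctrl against 338 CPM in cKO, 2.47-fold higher (2.25 to 2.72). The other fast classes started from higher Ctrl levels and differed less between the libraries. Myh1 nuclei had 325 and 376 CPM, a ratio of 1.16 (0.979 to 1.36), and in the Myh2 class 270 and 361 CPM, a ratio of 1.34 (1.07 to 1.69), or a log2 ratio of 0.42 that became 0.60, past 1.5-fold, without Malat1 and mitochondrial genes in the totals. Malat1 took 25.1% of the UMIs of Ctrl and 33.7% of those of cKO Myh2 nuclei. The Myh4 interval did not overlap that of the Myh1 or the Myh2 class. In the Myh7 class 13 Ctrl UMIs gave 321 CPM (171 to 549) and the cKO level was 533 CPM (477 to 594), the highest of the cKO classes. The result in cKO was a narrower spread among the fast classes, from 338 to 376 CPM, where Ctrl ran from 137 to 325 CPM.

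Irs2, the second docking protein, was also higher in cKO, but its largest ratio was in another class. Over all myonuclei it was at 51.0 CPM (46.1 to 56.2) in Ctrl and 137 CPM (128 to 146) in cKO, 2.69-fold higher (2.39 to 3.03). Among Myh1 nuclei 56.3 CPM in Ctrl stood against 252 CPM in cKO, a ratio of 4.48 (3.24 to 6.32). In the Myh2 class the levels were 118 and 226 CPM, a ratio of 1.92 (1.38 to 2.71), and in the Myh4 class 44.9 and 71.9 CPM, a ratio of 1.60 (1.33 to 1.93). With each nucleus weighted equally the Myh4 log2 ratio of 0.68 became 0.53, under 1.5-fold. The Myh1 interval lay wholly above those of the Myh2 and Myh4 classes. The Myh7 class gave 173 CPM from 7 UMIs in Ctrl and 134 CPM from 82 UMIs in cKO, and no difference was detectable at this depth.

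Irs1 and Irs2 thus had their largest ratios in different fast classes, and both were past 1.5-fold in Myh4 nuclei. The share of Irs2 in the UMIs of both genes gives their change relative to each other. Among Myh1 nuclei this share came to 14.8% (11 to 19.2, exact binomial interval) in Ctrl and 40.2% (36.1 to 44.4) in cKO. Myh4 nuclei went the opposite way, with 24.7% (22.1 to 27.6) in Ctrl and 17.6% (15.5 to 19.8) in cKO, while over all myonuclei it was 22.9% and 26.9%.

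Pik3r1 encodes the p85-alpha regulatory subunit, which docks the lipid kinase to Irs proteins. Over all myonuclei the libraries were close, at 68.4 CPM (62.8 to 74.5) in Ctrl and 62.2 CPM (56.4 to 68.5) in cKO. Within each fast class, however, the gene was lower in cKO. It was at 55.2 and 27.9 CPM in the Myh4 class, 1.98-fold lower (1.55 to 2.55), at 85.1 and 29.2 CPM in the Myh1 class, 2.92-fold lower (1.83 to 4.78), and at 154 and 81.6 CPM in the Myh2 class, 1.89-fold lower (1.30 to 2.76). With classes read after each nucleus was thinned to 500 UMIs, the Myh4 log2 ratio of −0.98 became −2.28. In the Myh7 class only 3 Ctrl UMIs gave 74.1 CPM (15.3 to 217), against 197 CPM (163 to 235) in cKO, a ratio of 2.65 with an interval from 0.887 to 13.1. The 276 Myh7 nuclei of cKO thus held 120 of its 422 Pik3r1 UMIs.

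With the classes weighted by their share of Ctrl UMIs, an alternative chosen after seeing the data, the log2 ratio of Pik3r1 over all myonuclei was −0.76 in place of −0.14. Pik3r1 was at 360 CPM in the FAP-like cluster of Ctrl and 309 CPM in that of cKO, so it too was higher outside the fibres than in them. The FAP marker sum, as given above, was lower in cKO in the Myh4 and Myh1 classes and stood at 49.0 and 55.4 CPM in the Myh2 class. Its part in the Pik3r1 difference was not tested in any class.

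Akt2, the Akt isoform tied to insulin-stimulated glucose uptake, differed little. It was at 60.7 CPM (55.4 to 66.4) in Ctrl and 50.7 CPM (45.5 to 56.4) in cKO myonuclei, a log2 ratio of −0.26 (−0.46 to −0.06). In the Myh4 class the ratio was −0.38 (−0.66 to −0.09). Among Myh1 nuclei Akt2 was at 31.3 CPM from 25 UMIs in Ctrl and 51.6 CPM from 46 UMIs in cKO, past 1.5-fold at a ratio of 1.65, with an interval from 0.993 to 2.80. With nuclei of high doublet score kept, this log2 ratio of 0.72 became 0.54, under 1.5-fold, and with classes read after each nucleus was thinned to 500 UMIs it became 1.89 (0.47 to 3.64). Of the classes with enough UMIs, Ctrl Myh1 nuclei were the low ones, 2.08-fold (1.38 to 3.25) under that of Ctrl Myh4 nuclei, while the classes of cKO lay between 50.1 and 54.1 CPM.

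Tbc1d1 and Tbc1d4 encode related Rab GTPase-activating proteins that hold back Slc2a4 vesicles until they are phosphorylated, Tbc1d4 mainly by Akt and Tbc1d1 also by AMPK. They differed between the libraries in opposite directions. Tbc1d1 was at 946 CPM (925 to 968) in Ctrl and 209 CPM (198 to 220) in cKO myonuclei, 4.52-fold lower (4.27 to 4.79). Tbc1d4 was at 111 CPM (104 to 119) in Ctrl and 252 CPM (240 to 264) in cKO, 2.26-fold higher (2.09 to 2.46).

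Tbc1d1 was lower in cKO in each fast class. In the Myh4 class it was at 940 CPM in Ctrl against 247 CPM in cKO, 3.81-fold lower (3.52 to 4.12). In the Myh1 class, where Ctrl was highest, it was at 1186 and 413 CPM, 2.87-fold lower (2.54 to 3.25), and in the Myh2 class at 500 and 91.8 CPM, 5.45-fold lower (4.09 to 7.35). In the Myh7 class 9 Ctrl UMIs gave 222 CPM (102 to 422) and 19 cKO UMIs gave 31.2 CPM (18.8 to 48.6), which was under the limit on UMIs for a count. The Myh7 log2 ratio of −2.84 became −0.18, with an interval from −2.86 to 5.20, when a leading share of 80% was required, so the Myh7 difference is not firm. The class order from Myh7 through Myh2 and Myh4 to Myh1 was kept in both libraries. Nuclei without a leading myosin differed most among those with enough UMIs, at 1050 CPM in Ctrl against 148 CPM in cKO.

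Tbc1d4 had nearly the reverse order, highest in Myh2 nuclei and lowest in Myh4 nuclei of both libraries. In the Myh4 class it was at 81.7 CPM in Ctrl against 165 CPM in cKO, 2.02-fold higher (1.78 to 2.31). With classes read after thinning to 500 UMIs, this log2 ratio of 1.02 became 1.62. In the Myh1 class the levels of 183 and 213 CPM gave a ratio of 1.17 (0.935 to 1.46), and in the Myh2 class those of 326 and 440 CPM a ratio of 1.35 (1.10 to 1.67). Without Malat1 and mitochondrial genes the latter log2 ratio of 0.43 became 0.61, past 1.5-fold. In the Myh7 class it was at 198 CPM from 8 UMIs in Ctrl and 407 CPM from 248 UMIs in cKO, a ratio of 2.06 (1.03 to 4.82), or a log2 ratio of 1.04 that became 1.68 with TMM scaling. As with Irs1, the interval of the ratio in Myh4 nuclei lay above those in Myh1 and Myh2 nuclei.

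The balance of the pair differed in the same direction in every class. Tbc1d4 gave 10.5% (9.87 to 11.2) of the UMIs of both genes in Ctrl and 54.6% (52.8 to 56.4) in cKO myonuclei. It stood at 7.99% and 40.1% in Myh4 nuclei, at 13.3% and 34.1% in Myh1 nuclei, and at 39.5% and 82.7% in Myh2 nuclei. In Myh7 nuclei it was 47.1% (23.0 to 72.2) of 17 UMIs in Ctrl and 92.9% (89.1 to 95.7) of 267 UMIs in cKO. A share within a library does not depend on the library's total, and it shows unequal change of the pair, not which of the genes changed.

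**Figure D2:**
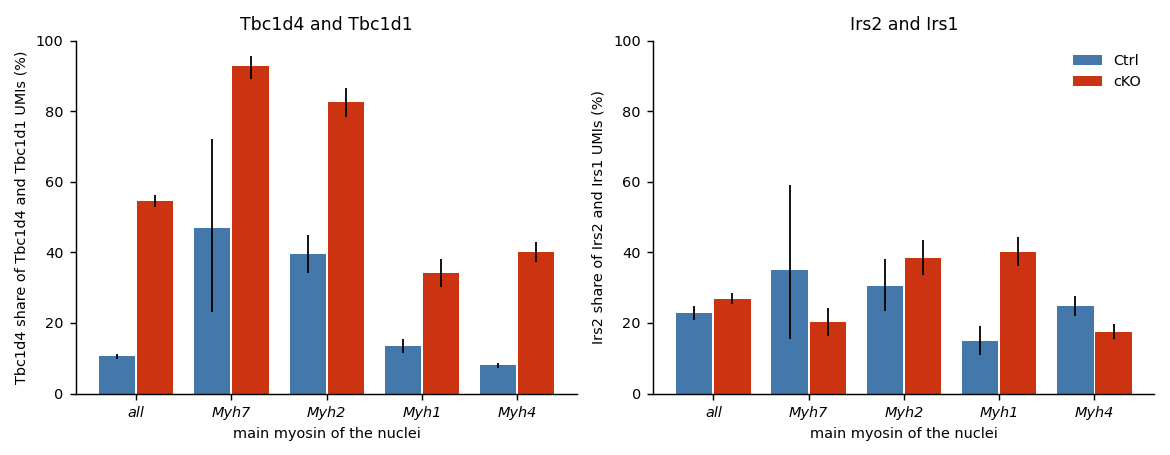
Share (%) of Tbc1d4 in the UMIs of Tbc1d4 and Tbc1d1 (left) and of Irs2 in those of Irs2 and Irs1 (right), in all myonuclei and by main myosin, for Ctrl (blue) and cKO (red), with exact binomial 95% intervals. The Tbc1d4 share is higher in cKO in every class, from 34.1% in Myh1 to 92.9% in Myh7 nuclei, whereas the Irs2 share is higher in cKO in Myh1 nuclei and lower in Myh4 nuclei.

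Slc2a4, the insulin-responsive glucose transporter itself, did not pass 1.5-fold over all myonuclei or in a myosin class. It was at 33.6 CPM (29.7 to 37.9) in Ctrl and 39.4 CPM (34.8 to 44.4) in cKO myonuclei, a log2 ratio of 0.23 (−0.02 to 0.48). Levels in the classes with enough UMIs ran from 34.4 to 51.5 CPM in Ctrl against from 36.1 to 51.6 CPM in cKO. The largest cKO to Ctrl ratio among the fast classes was 1.47 (0.901 to 2.45), in Myh1 nuclei, and it crossed 1.5-fold without Malat1 and mitochondrial genes, at a log2 ratio of 0.67 in place of 0.56. The ratio was 1.55 (0.757 to 3.38) in nuclei without a leading myosin and 1.65 (0.888 to 3.21) in those with too few myosin UMIs. Both of these passed 1.5-fold, with intervals that include no difference. Neighbouring classes did not differ beyond their intervals in either library.

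Ddit4, also called Redd1, is a stress-induced inhibitor of mTOR that acts downstream of several hormones. It was scarce, with 41 UMIs or 5.19 CPM (3.72 to 7.04) in Ctrl and 7 UMIs or 1.03 CPM (0.415 to 2.13) in cKO myonuclei, 5.02-fold lower (2.23 to 13.3). Of these UMIs, 34 were in Ctrl and 2 in cKO Myh4 nuclei, a ratio of 9.31 with an interval from 2.39 to 80. In the Myh2 class neither library held a UMI of it, in the Myh1 class Ctrl held 3 and cKO 0, and in the Myh7 class Ctrl held 0 and cKO 4, so no ratio is given there. Over all myonuclei its log2 ratio of −2.33 became −3.13 with the classes weighted by their share of Ctrl UMIs. Outside the fibres, Ctrl FAP-like nuclei held Ddit4 at 4.30 CPM from 3 UMIs. The endothelial-marked cluster of Ctrl held it at 13.5 CPM from 4 UMIs. After thinning to 500 UMIs, 0.234% (0.0942 to 0.482) of Ctrl myonuclei held a Ddit4 UMI. That interval overlapped those of both clusters, so this share cannot be told from background. Ddit4 is a short gene of 2.17 kb, and whether the reference used for counting took in introns is not stated in the sources used here.

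**Figure D3:**
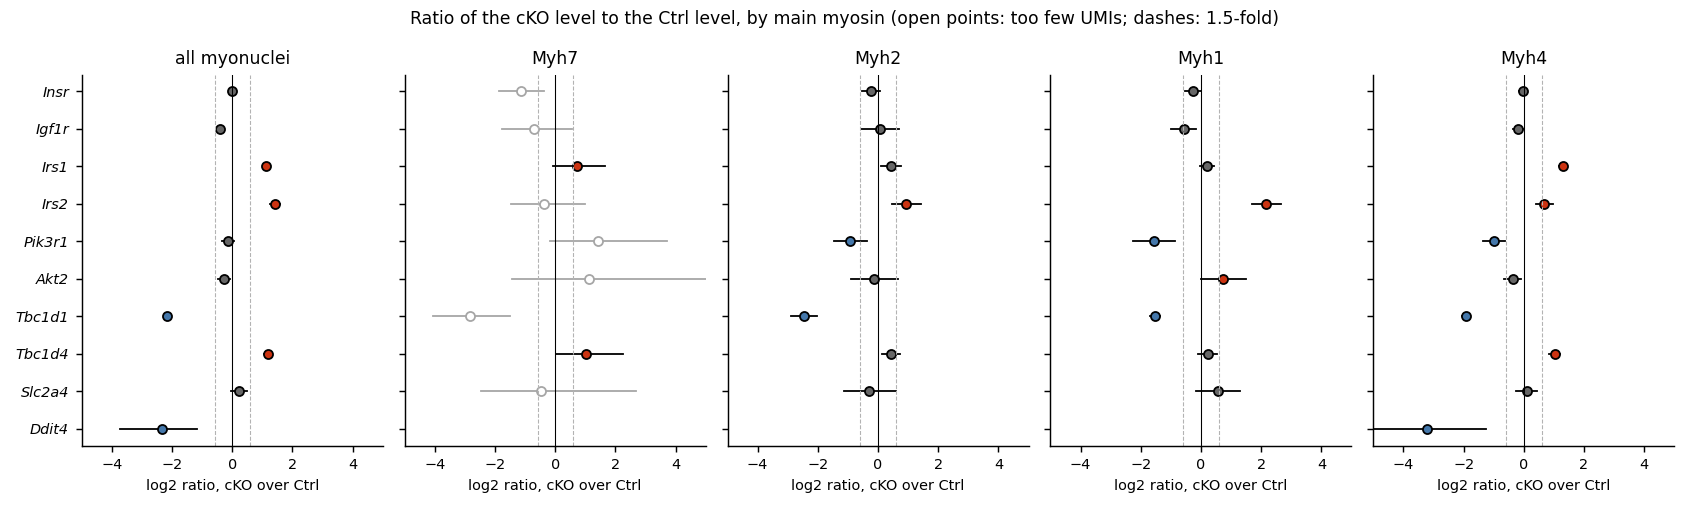
Log2 ratio of the cKO level to the Ctrl level for each member in all myonuclei and by main myosin, with 95% counting intervals cut at the ends of the axis; dashed lines mark 1.5-fold, red and blue points lie past it, and open points had too few UMIs to be counted. Tbc1d1 lies left of the dashed line in every panel, as an open point in Myh7 nuclei, Irs1 and Tbc1d4 pass it on the right in the Myh4 class, and Irs2 lies farthest right in the Myh1 class.

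By class, the members past 1.5-fold were as follows. In the Myh4 class all 10 could be compared, and 3 were higher (Irs1, Irs2 and Tbc1d4; 7.64% of 9133 genes were) and 3 lower (Pik3r1, Tbc1d1 and Ddit4; 11.1% of genes were). In the Myh1 class 9 could be compared, with Irs2 and Akt2 higher, where 9.87% of genes were, and Pik3r1 and Tbc1d1 lower, where 14.5% were. In the Myh2 class 9 could be compared, with Irs2 higher, where 9.08% of genes were, and Pik3r1 and Tbc1d1 lower, where 17.3% were. In the Myh7 class only Irs1 and Tbc1d4 had enough UMIs, and both were past 1.5-fold higher, as were 17.1% of 444 genes. The Irs1 ratio of 1.66 had an interval from 0.957 to 3.15, and its log2 ratio of 0.73 became 0.37 after thinning. With 40470 Ctrl and 609887 cKO UMIs in this class, genes passed the filter mainly through cKO UMIs, which favoured a higher call. Without enough UMIs, Insr, Igf1r and Tbc1d1 were past the fold lower and Pik3r1 and Akt2 higher. In nuclei without a leading myosin 4 of 9 members were higher (Irs1, Irs2, Tbc1d4 and Slc2a4; 10.6% of genes were) and Tbc1d1 was lower, as were 17.6% of genes. In nuclei with too few myosin UMIs the same 4 were higher, where 13.3% of genes were, and Igf1r, Akt2 and Tbc1d1 were lower, where 19.7% were. Irs2 was thus past the fold in each fast class in the higher direction, and Pik3r1 and Tbc1d1 in each in the lower direction.

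Among the fibre types of the Ctrl library, the oxidative Myh2 nuclei stood apart from Myh4 nuclei in most members. Of 9 members compared, 5 were at least 1.5-fold higher in Myh2 nuclei, where 16.9% of genes were, and 2 were lower, where 24.1% were. Tbc1d4 was 3.99-fold higher (3.26 to 4.86), Pik3r1 2.80-fold (2.10 to 3.68), Irs2 2.62-fold (1.88 to 3.58), Irs1 1.98-fold (1.60 to 2.42) and Insr 1.70-fold (1.44 to 2.00). Igf1r was 2.03-fold lower (1.45 to 2.93) and Tbc1d1 1.88-fold lower (1.63 to 2.17). Ctrl Myh1 nuclei shared the higher Irs1, at 2.38-fold, and Tbc1d4, at 2.24-fold, with Pik3r1 at 1.54-fold, but had no lower Tbc1d1. Their lower member was Akt2, as given above, and in them 9.85% of genes were past the fold higher and 16.4% lower. Against Myh4, the Ctrl Myh7 class allowed a comparison of Tbc1d1 alone, which was 4.23-fold lower (2.23 to 9.25), as were 38.7% of genes past 1.5-fold. Tbc1d1 passed the filter through its 5110 UMIs in Myh4 nuclei, beside 9 in Myh7 nuclei, so the filter favoured a lower call. Without enough UMIs, Insr, Irs1, Irs2 and Tbc1d4 were past the fold higher in Ctrl Myh7 nuclei, and Akt2, with 1 UMI, lower.

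In the cKO library the same comparison gave 3 members higher in Myh2 than in Myh4 nuclei, where 13.9% of genes were, and 2 lower, where 22.9% were. Irs2 was 3.14-fold higher (2.54 to 3.88), Pik3r1 2.92-fold (2.05 to 4.15) and Tbc1d4 2.66-fold (2.30 to 3.08), and the lower members were again Igf1r and Tbc1d1. Irs1, at 361 CPM in Myh2 and 338 CPM in Myh4 nuclei, no longer separated these classes. In cKO Myh1 nuclei Irs2 was 3.51-fold (2.90 to 4.25) and Tbc1d1 1.67-fold (1.47 to 1.90) above Myh4 nuclei, where 9.79% of genes were past the fold.

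The Myh7 nuclei of cKO were numerous enough to describe. Of 9 members, 4 were higher than in Myh4 nuclei of the same library, where 15.1% of genes were, and 1 was lower, where 23.4% were. Pik3r1 was 7.05-fold higher (5.29 to 9.45), Tbc1d4 2.46-fold (2.10 to 2.87), Irs2 1.87-fold (1.43 to 2.42) and Irs1 1.58-fold (1.39 to 1.79). Tbc1d1 was 7.93-fold lower (5.04 to 13.2). Against Myh2 nuclei, the other oxidative class, Pik3r1 was still 2.41-fold higher (1.74 to 3.37), while Tbc1d1 was 2.95-fold (1.74 to 5.21), Insr 1.62-fold (1.30 to 2.02) and Irs2 1.68-fold lower (1.28 to 2.22). Tbc1d4 at 407 and 440 CPM had overlapping intervals in these classes.

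Single nuclei were compared after each had been thinned to 500 UMIs, since the libraries differed in depth. Of Myh4 nuclei, 35.4% (33.2 to 37.6) in Ctrl and 10.8% (9.24 to 12.5) in cKO then held a Tbc1d1 UMI, and before thinning 76.2% and 30.2% did. Of Myh1 nuclei 38.4% and 19.4% did after thinning, and of Myh2 nuclei 11.5% and 4.63%. The FAP-like cluster, whose nuclei lie outside the fibres, gave 10.9% (7.82 to 14.6) in Ctrl and 5.66% (2.62 to 10.5) in cKO, with median depths of 1354 and 1155 UMIs against 2313 and 1660 in Myh4 nuclei. In Myh2 nuclei of both libraries and in Myh4 nuclei of cKO the intervals overlapped that of the FAP-like nuclei of the same library, so these shares cannot be told from background. The shares in Ctrl Myh4 nuclei and in Myh1 nuclei of both libraries lay above it, and also above those of the endothelial-marked cluster, 22.0% (15.8 to 29.3) in Ctrl and 4.20% (1.38 to 9.53) in cKO.

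Fibre transcripts reached that cluster in both libraries. Its Ctrl nuclei held 240 UMIs of Tbc1d1 beside 11683 of Ttn, the transcript of the giant sarcomere protein titin, and Ctrl myonuclei held 7478 beside 356134. In cKO the FAP-like nuclei held 28 beside 3413 and the myonuclei 1419 beside 257521. In these nuclei Tbc1d1 came to 344 CPM in Ctrl against 107 CPM in cKO, a difference in the same direction as in the fibres. In the endothelial-marked cluster Tbc1d1 was at 788 and 161 CPM, and in the small immune-like cluster at 588 CPM from 39 UMIs and 578 CPM from 15 UMIs.

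Irs1 was seen in 6.26% (5.22 to 7.44) of thinned Myh4 nuclei in Ctrl and 15.1% (13.3 to 17.1) in cKO, and in 8.31% and 6.92% of the FAP-like nuclei. Irs2 was seen in 2.98% (1.37 to 5.58) of Myh1 nuclei in Ctrl and 14.1% (10.8 to 18.0) in cKO, and in 0.860% and 3.77% of the FAP-like nuclei. The cKO shares of both genes in these classes were above the FAP-like shares, whereas the Ctrl shares had intervals that overlapped them. In the endothelial-marked cluster Irs1 was seen in 3.14% (1.03 to 7.19) of nuclei in Ctrl and 8.40% (4.10 to 14.9) in cKO, at median depths of 1076 and 1147 UMIs. That cKO interval overlaps the one in Myh4 nuclei, and Irs1 was at 74.1 CPM in Ctrl against 316 CPM in cKO there, higher in cKO as in the fibres. Irs2 was seen in 1.26% and 1.68% (0.204 to 5.94) of these nuclei, under its share in cKO Myh1 nuclei, and its level there was also higher in cKO, at 40.4 against 121 CPM. For Tbc1d4, 3.81% of Myh4 nuclei in Ctrl and 7.46% (6.15 to 8.94) in cKO had a UMI, beside 3.72% and 4.40% (1.79 to 8.86) of the FAP-like nuclei, where the gene was at 76.0 and 157 CPM. The Tbc1d4 intervals of these nuclei overlap in either library, so its share in Myh4 nuclei cannot be told from background.

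**Figure D4:**
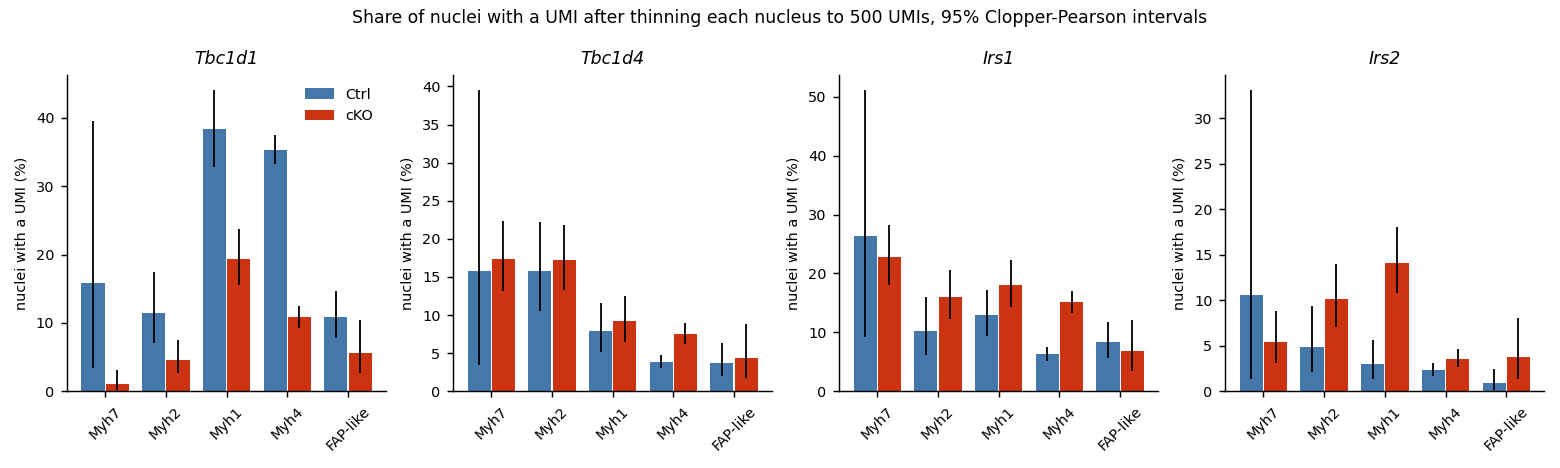
Share (%) of nuclei with at least 1 UMI of Tbc1d1, Tbc1d4, Irs1 and Irs2 after every nucleus was thinned to 500 UMIs, by main myosin and in the FAP-like cluster from outside the fibres, for Ctrl (blue) and cKO (red), with exact binomial 95% intervals. Tbc1d1 stands at 35.4% of Ctrl and 10.8% of cKO Myh4 nuclei, and Irs2 at 2.98% of Ctrl and 14.1% of cKO Myh1 nuclei.

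Clusters of nuclei, made from all genes and therefore given as a description, placed the members as follows. In the cluster led by Myh1, Irs2 was at 68.7 CPM in Ctrl against 349 CPM in cKO, the highest cKO value of any cluster. In the cluster led by Myh2, Tbc1d4 was at 312 and 595 CPM and Pik3r1 at 141 and 36.4 CPM. The type I-like cluster, with 176 Ctrl and 942 cKO nuclei, held Tbc1d1 at 743 CPM in Ctrl against 60.4 CPM in cKO, and Pik3r1 at 132 and 127 CPM. Its make-up differed between the libraries, since 18 Ctrl and 271 cKO nuclei in it had Myh7 as main myosin. Myh4 was at 1064 CPM in its Ctrl nuclei and 523 CPM in its cKO nuclei. Nuclei of the neuromuscular junction had the highest Irs1 level of the fibre clusters in both libraries, 393 CPM from 36 UMIs and 628 CPM from 52 UMIs. In the cluster with myotendinous junction markers Tbc1d1 was at 1014 and 171 CPM.

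A cluster of 160 Ctrl and 17 cKO nuclei had the highest Ctrl levels of the muscle ubiquitin ligases Fbxo32 and Trim63, at 3887 and 3706 CPM. Its Ctrl nuclei held Tbc1d1 at 1734 CPM and Akt2 at 133 CPM, the highest values among the Ctrl clusters, and Irs1 at 10.6 CPM from 4 UMIs and Tbc1d4 at 23.9 CPM from 9 UMIs, the lowest. Leaving this cluster out, an alternative chosen after seeing the data, gave log2 ratios for Irs1 of 1.25 in Myh4 nuclei, against 1.31 with it, and for Tbc1d1 of −1.86 against −1.93.

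Genes with the most similar profile over 7 combinations of myosin class and library with at least 50 nuclei were sought among 5677 genes, by Pearson's r of log2(CPM + 1), as a description, since the profiles share the libraries and their depth. For Tbc1d4 these were Oxct1, Pdlim1 and Idh2 with r from 0.982 to 0.992, of which Oxct1 and Idh2 encode mitochondrial enzymes. For Tbc1d1 they were Mcph1, Txnrd1 and Kcnq5 (0.985 to 0.989) and for Irs2 Eprs, Hspa4 and Gas6 (0.970 to 0.976). For Insr they were Cherp, Dmxl1 and Abcd3 (0.978 to 0.991), for Igf1r Dennd1b, Rsu1 and Ezh2 (0.978 to 0.984), and for Pik3r1 Gm14827, Myom1 and Cnot1 (0.962 to 0.983). For Akt2 they were Fbxw8, Setdb1 and Sephs1 (0.920 to 0.968). Ddit4 had too few UMIs to be included.

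A wider list of 72 genes of the pathway was read over all myonuclei, of which 67 had enough UMIs. In cKO 8 were at least 1.5-fold higher, where 9% of all genes were, and 11 lower, where 13.4% were, and the median log2 ratio was −0.11 against −0.09 over all genes. These shares lie near those of all genes. In Myh4 nuclei 6 of 61 were higher, beside 7.64% of all genes, and 5 lower, beside 11.1%, and of the genes past the fold over all myonuclei that had enough UMIs there, Pik3r3 and Sesn3 were past it higher and Ptpn1, Eif4ebp1, Rab8b, Sort1 and Foxo1 lower. Among ligands and carriers Igf1 was at 10.1 CPM in Ctrl against 9.29 CPM in cKO over all myonuclei, but at 10.5 and 16.5 CPM in Myh4 nuclei, 1.57-fold higher (1.05 to 2.34), while over all myonuclei Igfbp7, a secreted binding protein, was at 5.95 and 37.0 CPM, the largest ratio of the list (log2 2.64, 2.18 to 3.12). In Myh4 nuclei, though, Igfbp7 was at 5.70 and 7.06 CPM (log2 0.31, −0.57 to 1.15), and 87 of its 251 cKO UMIs were in Myh7 nuclei. Of 10 receptor-proximal genes, Grb10 and Grb14, adaptors that inhibit the insulin receptor, were past the fold higher, and Ptpn1, the phosphatase that silences it, was lower. Of 7 genes around the lipid kinase, Pik3r3, another regulatory subunit, was at 21.8 CPM in Ctrl against 51.0 CPM in cKO (log2 1.23, 0.96 to 1.50), and Inppl1 was also higher. Pik3r3 was past the fold higher in the Myh4, Myh1 and Myh2 classes, in each of which Pik3r1 was past it lower. Of the 8 kinases and phosphatases compared after that step only Akt1, with 9 and 21 UMIs, passed the fold, and it was higher.

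Of 18 genes of the mTOR arm 4 were past the fold lower, beside 13.4% of all genes, and 1 higher, beside 9%, with a median log2 ratio of −0.23. Mlst8, a subunit of both mTOR complexes, was at 4.93 and 2.06 CPM, Eif4ebp1, a translation repressor that mTOR inactivates, at 10.2 and 5.90 CPM, and Deptor and Akt1s1 were also lower. In Myh4 nuclei, however, Mlst8 (log2 −0.51), Deptor (−0.29) and Akt1s1 (−0.18) were not past the fold, and Ddit4l, a relative of Ddit4, was 2.10-fold higher (1.88 to 2.34). Sesn3, a stress-responsive protein of the sestrin family, was the gene past the fold higher over all myonuclei, at 7.08 CPM in Ctrl against 43.2 CPM in cKO (log2 2.61, 2.19 to 3.05). Of 16 genes of glucose transport and vesicles 3 were lower and 1 higher, beside the same 13.4% and 9%. Sort1, which sorts Slc2a4 into storage vesicles, was at 175 and 75.2 CPM (log2 −1.22, −1.37 to −1.07) and Hk1 at 2.40 and 0.885 CPM, whereas Slc2a1, the basal glucose transporter, had 10 and 20 UMIs.

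Of the 4 Foxo factors, which insulin signalling keeps out of the nucleus, Foxo1 was at 572 CPM in Ctrl against 229 CPM in cKO (log2 −1.32, −1.41 to −1.24), and Foxo4, with 26 and 13 UMIs, was also past the fold lower with an interval from −1.86 to 0.23, where 13.4% of all genes were past it. Foxo1 was past it lower in the Myh4, Myh1 and Myh2 classes too. Foxo3 had a log2 ratio of −0.32 and Foxo6 of 0.17. The plot of the other pathway genes by role shows these values together.

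**Figure D5:**
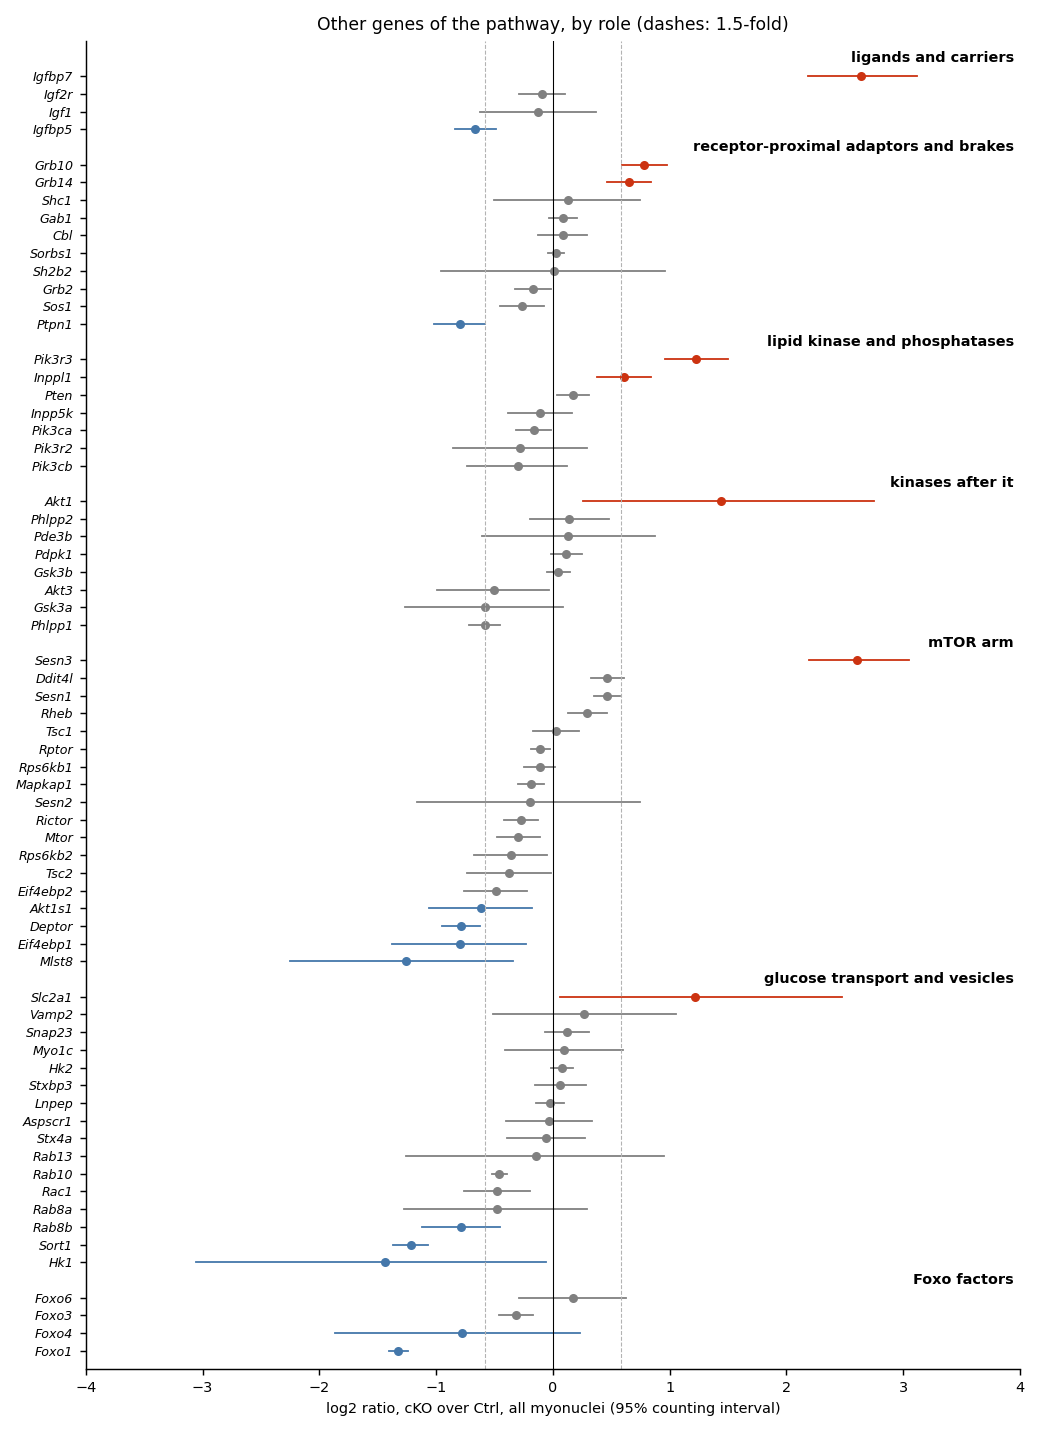
Log2 ratio of cKO over Ctrl over all myonuclei for the 67 further pathway genes with enough UMIs, grouped by role and ordered by ratio, with 95% counting intervals; dashed lines mark 1.5-fold, red genes lie past it higher and blue genes past it lower. Igfbp7 and Sesn3 lie farthest right and Hk1, Foxo1 and Mlst8 farthest left.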

How the data were processed

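Both libraries came from GP muscle. The deposited values were raw counts of UMIs per gene and barcode, which the authors made with Cell Ranger 3.1.0 on mm10, per the processing notes. The study's methods give its default parameters, which in that version count reads matching annotated exons. The annotation, and whether it was one that takes in introns, are not given in the sources used here. The labels and the methods name different versions of the 3′ kit. Total counts were 10410316 and 8446070.

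Nuclei with under 100 genes, under 500 UMIs or over 10% mitochondrial UMIs were removed. Scrublet (scanpy 1.11.5) marked 0 nuclei, so the 8% with the highest score were removed, leaving 3526 Ctrl and 3595 cKO nuclei. SCTransform and integration in Seurat 5.3.0 (3000 features, 25 components, resolution 0.3) gave 11 clusters, and those marked by FAP, endothelial with smooth muscle, and immune genes were set aside.

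UMIs were summed by class and compared as ratios of CPM with exact conditional 95% intervals. A gene was compared where at least 10 UMIs were expected in the smaller sum at equal levels, and counted at 1.5-fold. Shares have Clopper-Pearson intervals. UMIs from the same nucleus are not independent, so intervals and floors (3 counts) are too narrow for nuclei or animals. The steps were tested on simulated data. All members are named, as are the 5 pathway genes with the largest fold in each direction and the 3 most similar genes per member, which are not reported here for Irs1 and Slc2a4. Further pathway genes past 1.5-fold were named after their values were seen. Members and lists were chosen with earlier results of these data known. Coordinates and promoters came from GENCODE M21 and RefSeq (GRCm38). The scaling of the totals, the filters, the removal of doublets, the weighting of nuclei and the definition of the classes were varied.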

Additional observations from a re-analysis of the deposited data

How the results depend on the processing

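No paired analysis was possible because each group was 1 library. Over all myonuclei, Irs1, Irs2, Tbc1d1, Tbc1d4 and Ddit4 were past 1.5-fold in the same direction under every alternative run, as were Irs2, Pik3r1 and Tbc1d1 in the Myh2 and Myh1 classes and Irs1, Pik3r1, Tbc1d1, Tbc1d4 and Ddit4 in the Myh4 class. Irs2 in the Myh4 class ran from a log2 ratio of 0.53, under 1.5-fold, to 0.96. Totals without Malat1 and the mitochondrial genes moved the median log2 ratio of all genes by 0.10. The number of members past 1.5-fold between cKO and Ctrl Myh2 nuclei was 3 and became 5 with those genes left out, with median-of-ratios scaling, with TMM scaling and with each nucleus weighted equally. Under each of these the added members were Irs1 and Tbc1d4, higher in cKO. With equal weights, 5 members in place of 2 separated Myh1 from Myh4 nuclei in cKO. Between cKO and Ctrl Myh7 nuclei the 2 members became 7 without the filter on low counts, 1 with a leading share of 80% and 0 with classes read after thinning to 500 UMIs, where fewer nuclei remain. Between Ctrl Myh7 and Myh4 nuclei the 1 member became 6 without the filter and 2 with all nuclei whatever their cluster. Igf1r in Myh7 nuclei, not counted for its 8 Ctrl UMIs, reversed from −0.70 to 0.11 after thinning and to 0.21 at 80%. TMM scaling raised the log2 ratios in Myh7 nuclei, for Irs1 from 0.73 to 1.37 and for Irs2, with 7 Ctrl UMIs, from −0.36 to 0.28. Tbc1d1 in Myh7 nuclei, with 9 Ctrl UMIs, went from −2.84 to −0.18 at 80%. With classes read after thinning 10 of 34 log2 ratios left their counting interval, and ratios near 0 could change sign. For example, Pik3r1 in Myh4 nuclei went from −0.98 to −2.28, Tbc1d4 in Myh4 nuclei from 1.02 to 1.62, Akt2 in Myh1 nuclei from 0.72 to 1.89, Irs1 in Myh2 nuclei from 0.42 to 0.79, Irs1 in Myh1 nuclei from 0.21 to −0.30 and Slc2a4 in Myh4 nuclei from 0.10 to −0.33. The cause of the other shifts was not tested. No result could be checked by leaving out a replicate. Depth limits the Ctrl Myh7 class and Ddit4.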
